A study of Mus musculus with 10 samples.

Results

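CC chemokines are small secreted proteins that guide leukocytes and carry a pair of adjacent cysteines near the start of the mature protein. The genes described are Ccl4, Ccl3, Ccl2, Ccl5, Ccl6, Ccl7, Ccl9, Ccl12, Ccl22 and Ccl25, found by gene symbol, and they make up 10 of the 22064 genes listed for cells sorted from spinal cord. Of these, 5 (Ccl4, Ccl3, Ccl6, Ccl9 and Ccl25) are among the 19333 genes of the authors' deposited table for oligodendrocyte precursor cell (OPC) cultures. The other 5 were not analysed here in OPCs.

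The series has 10 mouse RNA-seq libraries in 4 groups, and floxed Apc alleles (Apc-fl/fl) are shared by all of them. Apc-deleted OPC cultures (3 libraries) carried Olig2-Cre:Apc-fl/fl, so that recombination follows Olig2 expression, and wild-type OPC cultures (3 libraries) came from littermates with Apc-fl/fl and no Cre. OPCs, the progenitors of myelinating oligodendrocytes, were captured by immunopanning, in which antibodies on a dish hold the cells, and cultured for 3 days in medium with the growth factor PDGFAA. The sorted cells came from animals of genotype Pdgfra-CreER:Apc-fl/fl, 18 days after induction of EAE (experimental autoimmune encephalomyelitis), which models multiple sclerosis, with CD4+ cells labelled Th1 in 1 library and CD11b+Gr-1+NK1.1+ cells named cytotoxic macrophages in 3 libraries. Induction of CreER, the ages of the animals, pooling of animals and any sort from mice without Cre are not stated in the sources used here.

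CC chemokines signal through G protein-coupled receptors. Ccl3, Ccl4 and Ccl5 draw monocytes and T cells into inflamed tissue, and Ccl2, Ccl7 and Ccl12 draw monocytes out of the blood through CCR2. Many are induced through NF-kB in activated macrophages and microglia, and in EAE they are known for bringing leukocytes into the spinal cord.

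Of the 10 genes, 8 lie on chromosome 11 (GRCm38, GENCODE M21) in separate clusters. Ccl2 (82035571 to 82037453), Ccl7 (82045712 to 82047525) and Ccl12 (82101845 to 82103400) form the first. At a distance of 1422377 bases follow Ccl5 (83525778 to 83530518), Ccl9 (83572919 to 83578636), Ccl6 (83587882 to 83593087), Ccl3 (83647844 to 83649355) and Ccl4 (83662584 to 83664683). Ccl3 and Ccl4 are 13228 bases apart, and Ccl2 and Ccl7 8258 bases. Ccl22 (94745590 to 94751699) and Ccl25 (4325210 to 4360020) lie apart from each other on chromosome 8.

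The feature that names the family is shown first, as 36 coding bases of 9 of the genes on their own strand, read from the GENCODE M21 transcripts, with the adjacent cysteine codons in capitals.
Ccl4: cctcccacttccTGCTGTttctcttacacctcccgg
Ccl5: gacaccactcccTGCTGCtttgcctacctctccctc
Ccl6: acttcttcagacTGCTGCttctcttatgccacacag
Ccl9: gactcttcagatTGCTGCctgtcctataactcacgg
Ccl2: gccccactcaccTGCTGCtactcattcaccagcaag
Ccl7: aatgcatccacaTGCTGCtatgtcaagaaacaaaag
Ccl12: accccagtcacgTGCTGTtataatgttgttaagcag
Ccl22: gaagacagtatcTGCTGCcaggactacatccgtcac
Ccl25: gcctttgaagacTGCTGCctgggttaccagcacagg
Over the whole coding sequence Ccl4 and Ccl3 were 67.0% identical, Ccl6 and Ccl9 64.8%, and Ccl7 and Ccl12 63.5%. The longest run shared by the transcripts of any pair was 25 bases, in Ccl6 and Ccl9, against sequenced reads of 150 bases.

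Ccl3 and Ccl9 are the genes of the 10 for which the OPC table gives a 95% interval above 0 and RefSeq (GRCm38.p6) a promoter window in the table used here, so the 250 bases before each start are shown on the gene's strand.
Ccl9, chr11:83578637-83578886, minus strand: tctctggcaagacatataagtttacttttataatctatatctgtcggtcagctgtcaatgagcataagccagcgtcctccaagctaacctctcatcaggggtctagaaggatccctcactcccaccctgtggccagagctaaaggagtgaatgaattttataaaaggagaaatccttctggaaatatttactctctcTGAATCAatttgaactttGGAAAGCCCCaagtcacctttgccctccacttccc
Ccl3, chr11:83649379-83649628, minus strand: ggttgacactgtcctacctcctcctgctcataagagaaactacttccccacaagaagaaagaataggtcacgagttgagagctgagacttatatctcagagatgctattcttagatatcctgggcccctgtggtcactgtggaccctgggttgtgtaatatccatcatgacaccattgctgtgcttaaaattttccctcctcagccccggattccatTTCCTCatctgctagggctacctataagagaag
Capitals mark, in Ccl9, the AP-1 motif TGANTCA and, on the other strand, a match to the NF-kB consensus, which do not overlap. In Ccl3 they mark the ETS core GAGGAA, also on the other strand. Motifs were searched on both strands of the 300 bases around each start (250 before, 50 after), and 6 of the 10 genes had 7 such windows. The NF-kB consensus was found in 1 of the 7 and in 8.46% of all 32851 promoters, TGANTCA in 1 (Ccl9) against 7.81%, and GAGGAA in 2 (Ccl12 and Ccl3) against 28.3%. The TCF/LEF motif CTTTGA, which beta-catenin's partner factors bind, was found in 2 windows (Ccl12 and Ccl25) against 16.0% of all promoters. A match describes the letters of a window and is no evidence of a bound site.

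The labels were checked against defining markers. In the library labelled Th1 8 of the 9 T cell markers in the files and all 5 Th1 markers had no read, Lck with 422 reads being the exception. Its neutrophil list summed to 25190 TPM and its macrophage and monocyte list, in which Lyz2 took 11006 TPM and Ly6c2, Plac8 and Ccr2 had no read, to 12397 TPM (a level per transcript length, on a sum equal in every library). The macrophage libraries carried a neutrophil list of 433965 to 437049 TPM, against a macrophage and monocyte list of 33803 to 34382 TPM. Depth was 3051730 estimated reads in the library labelled Th1 and 23174908 to 23564215 in the macrophage libraries. The library labelled Th1 was also sparse, with reads in 6550 genes and none in 83 of the 568 genes that averaged 100 TPM or more in the macrophage libraries. Both names are therefore used as labels only. In the OPC cultures, levels derived from the authors' deposited table summed over 5 neuronal markers to 266795 normalized counts in Apc-deleted and 277108 in wild-type OPCs. Over 7 OPC markers they summed to 36401 in Apc-deleted and 36506 in wild-type OPCs. The neuronal gene Tubb3 alone had a mean of 122255, against 2251 for the OPC receptor gene Pdgfra, in the authors' deposited table. These counts are not adjusted for gene length. Apc itself had a log2 fold change of -0.14 (SE 0.13) in the authors' deposited table, a value over the whole gene that does not isolate the floxed part.

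In the OPC cultures, Ccl4 was the CC chemokine that rose in Apc-deleted cells, and no other measured CC ligand passed the test. The authors' deposited table names no numerator, so direction was read from the Wnt targets Notum, Sp5, Lef1 and Axin2, and under that reading every fold change below is Apc-deleted over wild type. It holds no value per library, so the spread is known only through its standard errors, and values per group were derived from its mean and fold change with 3 libraries in each group. Of the 5 measured genes 1 was called higher and 0 lower at an adjusted p under 0.05 by the authors' deposited table, where 0.393% of all genes were called higher and 0.155% lower. An unadjusted p under 0.05 was held by 3 of the 5 (Ccl4, Ccl3 and Ccl9) in the authors' deposited table, against 3.63% of all genes. The median log2 fold change of the 5 in the authors' deposited table was 1.29, against 0.0014 over all genes. The implied wild-type values of Ccl4 (0.342) and Ccl3 (1.92) lie under the lowest mean in the authors' deposited table, 3.03. Both may thus be listed only through their Apc-deleted level, which tilts these counts and this median upward. They are description only.

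The chemokines of monocytes and T cells stood at the top. Ccl4, which attracts both, had implied means of 43.8 normalized counts in Apc-deleted OPCs and 0.342 in wild-type OPCs in the authors' deposited table. This is a log2 fold change of 7.00 (SE 1.35, 95% interval 4.35 to 9.64, adjusted p = 0.000137), the highest of all 19333 genes in the authors' deposited table. The level was low, with a mean of 22.1 normalized counts, and the standard error was 3.12 times the median of the 200 genes of most similar mean in the authors' deposited table. The implied wild-type value lies under the lowest mean listed there, 3.03, so the size of the fold is poorly fixed, while its interval lies above 0.

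Ccl3, the neighbour of Ccl4 and a ligand of CCR1, had implied means of 18.0 normalized counts in Apc-deleted OPCs and 1.92 in wild-type OPCs in the authors' deposited table. Its log2 fold change was 3.23 (SE 1.05, 95% interval 1.17 to 5.29), with p = 0.00215 before and 0.239 after adjustment in the authors' deposited table, so it was not called. Its standard error there was 1.67 times that of genes of similar mean, in the same direction as for Ccl4.

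The rodent chemokines Ccl9 and Ccl6, ligands of CCR1, were at higher levels in wild-type OPCs than Ccl4 and Ccl3. Ccl9 had implied means of 34.7 normalized counts in Apc-deleted OPCs and 14.2 in wild-type OPCs in the authors' deposited table, a log2 fold change of 1.29 (SE 0.58, 95% interval 0.16 to 2.42, adjusted p = 1). Ccl6 had 41.8 in Apc-deleted OPCs and 26.0 in wild-type OPCs in the authors' deposited table, a log2 fold change of 0.68 (SE 0.37, 95% interval -0.04 to 1.41). Neither was called.

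Ccl25, known as the chemokine of thymus and small intestine, had implied means of 310 normalized counts in Apc-deleted OPCs and 315 in wild-type OPCs in the authors' deposited table. Its log2 fold change was -0.02 (SE 0.14, 95% interval -0.30 to 0.25). The gene overlaps Elavl1 on the other strand, which had a mean of 1272 normalized counts in the authors' deposited table. The sources used here do not state whether counting used strand, so the level of Ccl25 is uncertain.

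**Figure D1:**
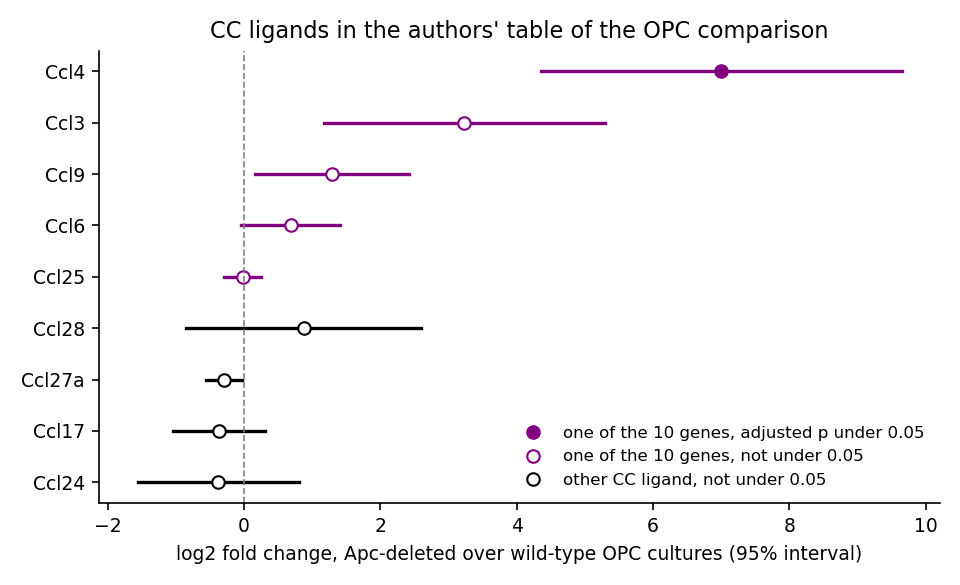
Log2 fold change of each CC ligand in the authors' deposited table, Apc-deleted over wild-type OPC cultures, with 95% intervals (lines) and the call at an adjusted p under 0.05 (filled points). Ccl4 at 7.00 is the only filled point, and the intervals of Ccl4, Ccl3 and Ccl9 lie above 0.

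**Figure D2:**
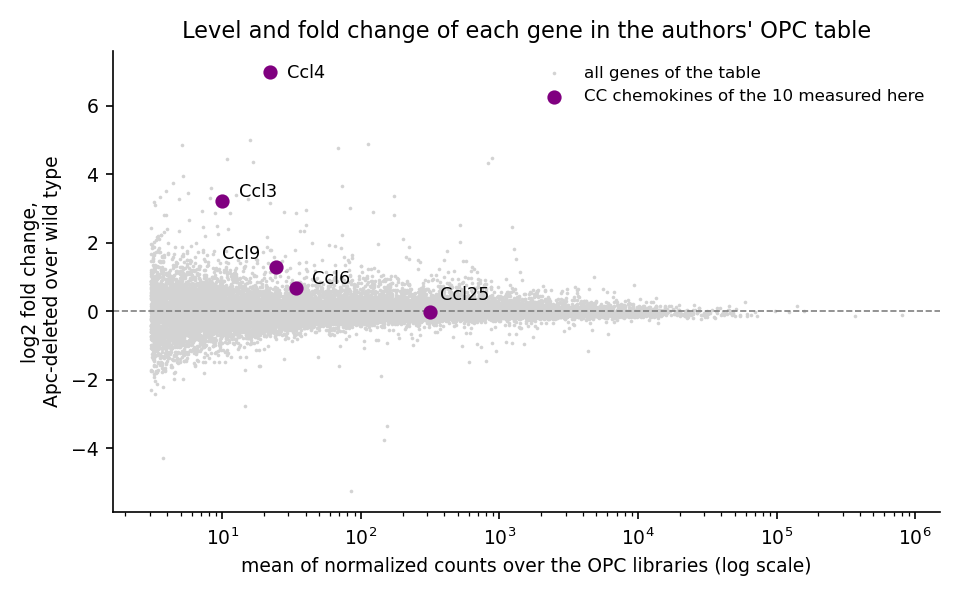
Log2 fold change against the mean of normalized counts (log scale) for all 19333 genes of the authors' deposited table (grey) and the 5 measured CC chemokines (purple). Ccl4 has the highest fold change of the table at a mean of 22.1, Ccl3, Ccl9 and Ccl6 lie at means of 9.98 to 33.9, and Ccl25 lies on the zero line at a mean of 313.

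Per kilobase of annotated exon, Ccl4 stood first among these genes in Apc-deleted OPCs and last in wild-type OPCs. The implied level of Ccl4 was 66.3 normalized counts per kb in Apc-deleted OPCs and 0.518 in wild-type OPCs in the authors' deposited table. In the authors' deposited table Ccl25 had 41.7 per kb in Apc-deleted OPCs and 42.4 in wild-type OPCs, and Ccl6 had 23.3 in Apc-deleted OPCs and 14.5 in wild-type OPCs. Ccl3 had 23.5 per kb in Apc-deleted OPCs and 2.51 in wild-type OPCs, and Ccl9 11.4 in Apc-deleted OPCs and 4.66 in wild-type OPCs, in the authors' deposited table.

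Of 14 further CC ligands, 4 were measured in OPCs and 0 were called. The mucosal chemokine Ccl28 was at 0.88 (SE 0.88), and Ccl17, a CCR4 ligand, at -0.37 (SE 0.34), both log2 fold changes of the authors' deposited table. Ccl24, an eotaxin, was at -0.38 (SE 0.60), and Ccl27a at -0.29 (SE 0.14, unadjusted p = 0.0304) in the authors' deposited table. Among CC receptors and their decoys 9 of 14 were measured, 4 of them above and 5 below 0 in the authors' deposited table, and 0 were called. Of 11 measured genes of the NF-kB pathway and its inducers 0 were called, and their median was 0.08 in the authors' deposited table. Tlr4, the receptor for bacterial lipopolysaccharide, was at 3.96 (SE 1.37, adjusted p = 0.349) in the authors' deposited table. Its mean was only 5.19 normalized counts, and its implied wild-type value of 0.625 lies under the lowest mean listed there, 3.03. Of 5 proteases listed as trimming chemokines, Mmp12, the macrophage elastase, rose by 4.76 (SE 1.09, adjusted p = 0.00405) in the authors' deposited table.

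Some macrophage genes rose beside Ccl4. Of 11 measured macrophage and monocyte markers (of 14 listed) 9 lay above 0 and 2 were called in the authors' deposited table, Lyz2 at 4.33 (SE 0.96) and Cd68 at 1.54 (SE 0.36). The median log2 fold change of those 11 was 0.12, against 0.0014 over all genes in the authors' deposited table. The implied levels of that list in the authors' deposited table summed to 5238 normalized counts in Apc-deleted OPCs and 3476 in wild-type OPCs. Lyz2 alone was at 1568 in Apc-deleted OPCs and 78.1 in wild-type OPCs. All 6 markers of lipid-laden phagocytes lay above 0 in the authors' deposited table, with Mmp12 and Gpnmb (4.49, SE 1.05) called. The intervals of Apoe (0.02, SE 0.14) and Lpl (0.24, SE 0.19) included 0, and those of the other markers did not. The list summed to 23864 in Apc-deleted OPCs and 16656 in wild-type OPCs. Most of this was Ctsd, not called (11863 in Apc-deleted OPCs and 6915 in wild-type OPCs), and Apoe (8917 in Apc-deleted OPCs and 8810 in wild-type OPCs). Of 9 microglia markers 5 lay above 0 and 0 were called, with sums of 3055 in Apc-deleted OPCs and 2587 in wild-type OPCs in the authors' deposited table. Of 10 neutrophil markers 1 lay above 0, with sums of 542 in Apc-deleted OPCs and 603 in wild-type OPCs in the authors' deposited table. The standard errors of the called markers were wide in the authors' deposited table. They were 7.90 (Gpnmb), 7.12 (Lyz2), 4.04 (Mmp12) and 1.98 (Cd68) times the median of genes of similar mean. The part of any of these cell types in the Ccl4 value was not tested. In these bulk libraries a change in the number of cells of a type and a change in RNA per cell cannot be told apart.

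In the sorted cells, the 10 genes summed to 5804 TPM (0.580% of the total) in the library labelled Th1, and to 1275 ± 13.1 TPM (SD, n = 3; 0.126% to 0.128%) in the macrophage libraries. In both, 8 of the 10 reached 1 TPM. The makeup differed. Ccl5 (39.0%) and Ccl7 (34.8%) made up most of the sum in the library labelled Th1, whereas Ccl6 (43.8%) led in the macrophage libraries, followed by Ccl2 (13.6%) and Ccl3 (11.1%). These are shares of TPM, and the order of Ccl2 and Ccl3 depends on the length used, as given below.

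The order of levels in the macrophage libraries was Ccl6 (558 ± 6.56 TPM), Ccl2 (174 ± 2.89), Ccl3 (142 ± 1.41), Ccl5 (123 ± 4.24), Ccl4 (118 ± 1.59), Ccl9 (79.5 ± 0.839), Ccl12 (76.6 ± 1.78), Ccl7 (3.88 ± 0.290) and Ccl25 (0.687 ± 0.127 TPM, SD, n = 3 throughout), with Ccl22 without a read. Of neighbours in that order, Ccl5 and Ccl4, and Ccl9 and Ccl12, had ranges that overlapped. The order also depends on the length used. With reads divided by annotated exon length, on the same scale, the means ran Ccl6 (995), Ccl3 (280), Ccl2 (238), Ccl4 (216) and Ccl9 (191). Ccl12 (122), Ccl5 (108), Ccl7 (7.47) and Ccl25 (0.229) followed. No source used here says that these libraries came from separate animals, so their SDs and the p-values below measure only the spread between them, which may be technical.

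The sorted populations, the library labelled Th1 over the macrophage libraries, were tested with edgeR's quasi-likelihood test over 11447 genes. Only the macrophage libraries give a spread, since the other side is 1 library, and a call needed at least 4-fold and an adjusted p under 0.05. Of the 10 genes 5 were called higher in the library labelled Th1 (Ccl4, Ccl2, Ccl5, Ccl7 and Ccl22) and 2 lower (Ccl3 and Ccl12), where 13.7% of all genes were called higher and 54.6% lower. Over all genes this is 1567 higher and 6245 lower calls, against 2009 higher and 3440 lower with DESeq2 size factors and 1098 higher and 8165 lower with library totals. The median gene had a log2 fold change of -5.61 with TMM scaling, -4.32 with DESeq2 size factors and -6.25 with library totals. A fold change between these populations therefore depends on the scaling, and each is also given relative to that median of -5.61.

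Among the chemokines of monocytes and T cells, Ccl5 and Ccl4 were higher and Ccl3 lower in the library labelled Th1. Ccl4 had 360 TPM in the library labelled Th1, against 116, 120 and 118 TPM in the macrophage libraries. The groups did not overlap, and the edgeR log2 fold change was 2.38 (SE 0.07, adjusted p = 2.25e-18), or 7.99 above the median gene. The value was 0.89 with library totals and 1.94 with no filter on low counts, both under 4-fold.

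Ccl3, beside Ccl4 in the genome, had 1.43 TPM (3 reads) in the library labelled Th1, against 143, 140 and 142 TPM (3811, 3799 and 3827 reads) in the macrophage libraries. Every macrophage library was far above the library labelled Th1, by 166-fold in CPM (reads as a share of the library total) with an exact 95% counting interval of 56.7 to 804. The edgeR log2 fold change was -5.87 (SE 0.30, adjusted p = 5.91e-14), or -0.26 relative to the median gene.

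Ccl5, made by activated T cells as well as macrophages, had 2265 TPM in the library labelled Th1, against 119, 127 and 123 TPM in the macrophage libraries. It was higher there than in each macrophage library, with an edgeR log2 fold change of 5.07 (SE 0.05, adjusted p = 2.37e-28), or 10.7 above the median gene.

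The CCR2 ligands also parted, with Ccl7 and Ccl2 higher and Ccl12 lower in the library labelled Th1. Ccl7 had 2019 TPM in the library labelled Th1, against 3.64, 4.20 and 3.79 TPM in the macrophage libraries, an edgeR log2 fold change of 9.77 (SE 0.06, adjusted p = 4.20e-31), or 15.4 above the median gene. Ccl2, the main monocyte attractant, had 684 TPM in the library labelled Th1, against 173, 171 and 177 TPM in the macrophage libraries. Both were higher in the library labelled Th1 than in any macrophage library, and Ccl2 had an edgeR log2 fold change of 2.72 (SE 0.05, adjusted p = 1.82e-22), or 8.33 above the median gene. With library totals it was 1.23, under 4-fold.

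Ccl12, a rodent CCR2 ligand, had 0.780 TPM (1 read) in the library labelled Th1, against 75.6, 75.6 and 78.7 TPM in the macrophage libraries. The macrophage libraries were all higher, by 151-fold in CPM with an exact 95% counting interval of 27.1 to 5979. By edgeR the log2 fold change was -5.74 (SE 0.53, adjusted p = 3.13e-09), or -0.12 relative to the median gene.

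Of the rodent CCR1 ligands neither passed 4-fold with TMM scaling. Ccl6 had 268 TPM in the library labelled Th1, against 550, 562 and 561 TPM in the macrophage libraries, with an edgeR log2 fold change of -0.39 (SE 0.05, adjusted p = 1.28e-07) that turned to 1.13 with DESeq2 size factors. Ccl9 had 192 TPM in the library labelled Th1, against 78.5, 80.2 and 79.7 TPM in the macrophage libraries, at a log2 fold change of 1.90 (SE 0.04, edgeR adjusted p = 1.47e-20) that became a called 3.42 with DESeq2 size factors. Relative to the median gene these are 5.22 for Ccl6 and 7.51 for Ccl9. Ccl6 overlaps the transcript E230016K23Rik, and Ccl2 overlaps Gm17268, on the other strand, and reads of such partners cannot be told apart without strand.

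Ccl22, a CCR4 ligand made by macrophages and dendritic cells, had 75 reads (13.9 TPM) in the library labelled Th1 and no read in any macrophage library. Against a floor of 3 reads over the macrophage group it was at least 575-fold higher in CPM. Ccl22 passed the filter on low counts only through the library labelled Th1, where it is high. Its place among the genes called higher by edgeR is therefore description only. Ccl25 had no read in the library labelled Th1, where 3 reads are 0.983 CPM, against 25, 35 and 31 reads (0.55, 0.80 and 0.71 TPM) in the macrophage libraries. It was not called (edgeR adjusted p = 0.118). Floors and counting intervals cover counting error only.

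**Figure D3:**
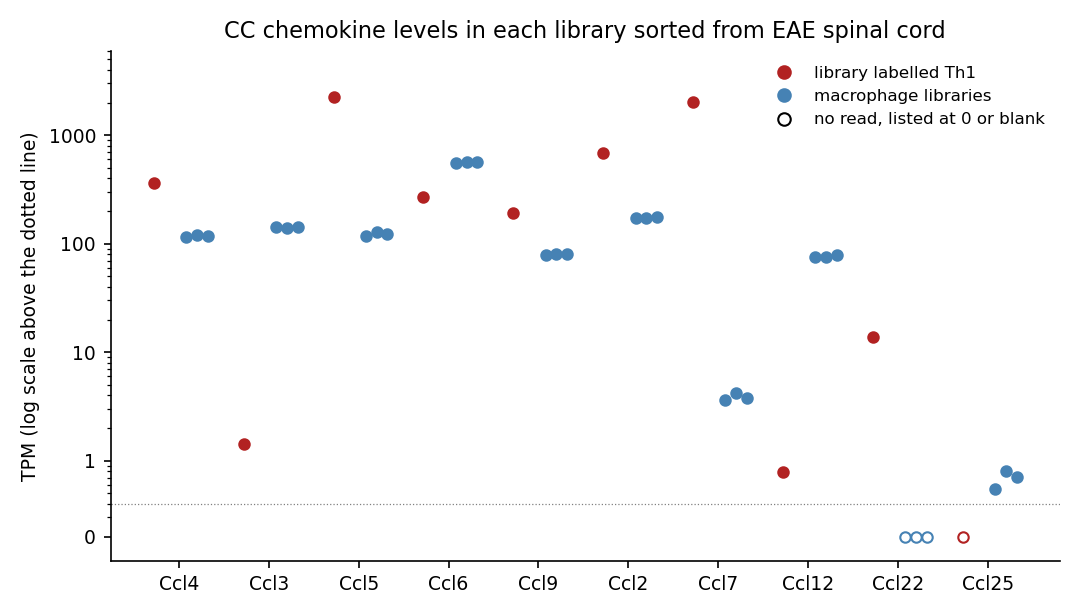
TPM of each of the 10 CC chemokines (log scale above the dotted line) in the library labelled Th1 (red) and in each of the 3 macrophage libraries (blue), with open points for no read. Ccl5, Ccl7, Ccl2, Ccl4 and Ccl9 lie higher in the library labelled Th1, Ccl3, Ccl12 and Ccl6 lower, and the macrophage libraries lie close together for every gene but Ccl25.

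Ratios between genes of 1 library need no scaling between libraries. The ratio of Ccl3 to Ccl4 was 0.00398 in the library labelled Th1, against 1.23, 1.17 and 1.21 in the macrophage libraries, so that the single library lay outside the spread of the others. Ccl12 to Ccl2 behaved likewise, at 0.00114 in the library labelled Th1 and 0.441 ± 0.00382 in the macrophage libraries (SD, n = 3). In the library labelled Th1 these ratios rest on 3 reads of Ccl3 and 1 read of Ccl12, so their size is poorly fixed. The edgeR fold changes of Ccl3 and Ccl12 also lay near the median gene, at -0.26 and -0.12 relative to it, so their low side is not particular to them.
The ratio of Ccl7 to Ccl2 was 2.95 in the library labelled Th1, against 0.0223 ± 0.00191 in the macrophage libraries. Ccl5 to Ccl4 was 6.30 in the library labelled Th1 and 1.04 ± 0.0219 in the macrophage libraries, and Ccl9 to Ccl6 was 0.716 in the library labelled Th1 and 0.142 ± 0.000370 in the macrophage libraries (SD, n = 3 each). With 1 library on one side no permutation test of a ratio can pass, the smallest exact p being 0.25 one-sided.

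**Figure D4:**
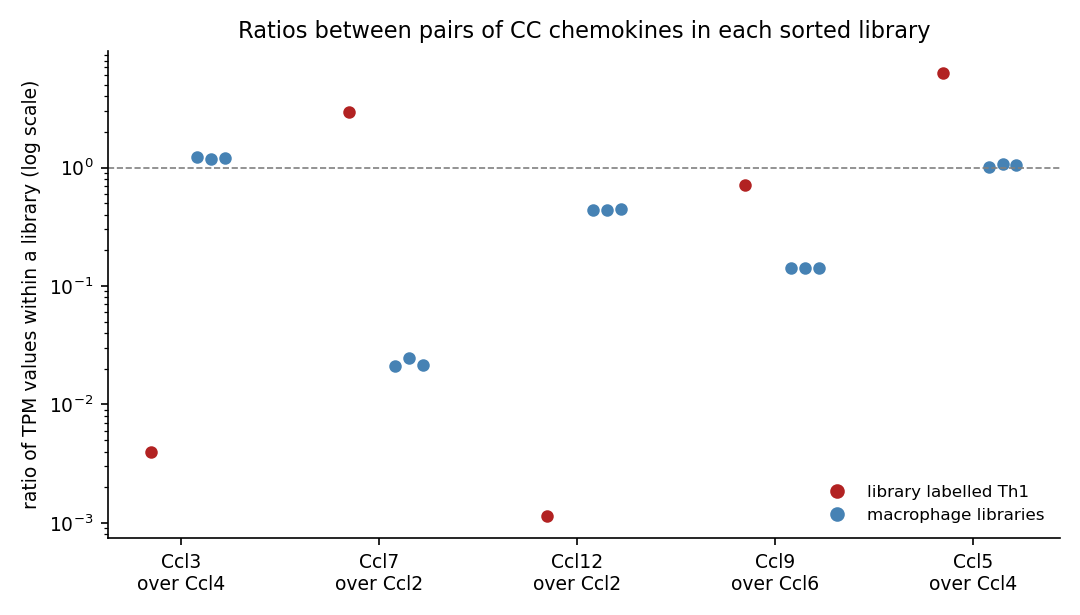
Ratio of TPM values for 5 pairs of CC chemokines within the library labelled Th1 (red) and within each macrophage library (blue), on a log scale with a dashed line at 1. The library labelled Th1 lies below the macrophage libraries for Ccl3 over Ccl4 and Ccl12 over Ccl2 and above them for Ccl7 over Ccl2, Ccl9 over Ccl6 and Ccl5 over Ccl4.

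The 3 most abundant CC receptors of the macrophage libraries were Ccr2 (29.7 ± 0.625 TPM), Ccr1 (28.2 ± 0.556) and Ccrl2, a decoy-like receptor (25.5 ± 0.771 TPM, SD, n = 3), and no CC receptor passed 3 reads in the library labelled Th1. By edgeR Ccr1, Ccr2, Ccr3 and Ccrl2 were called lower there. Of 14 tested NF-kB pathway and inducer genes 12 were called lower, where 54.6% of all genes were, and the median log2 fold change of the 14 was -4.29, above the -5.61 of all genes. Rela, the NF-kB subunit p65, was called higher, with 496 TPM in the library labelled Th1 against 6.58 ± 0.110 TPM in the macrophage libraries. Il1b, an inducer of chemokines, had 1 read (0.260 TPM) in the library labelled Th1, against 404 ± 3.21 TPM in the macrophage libraries. Of the proteases, Mmp2 had 114 TPM in the library labelled Th1 and 0.0400 ± 0.0173 TPM in the macrophage libraries, whereas Mmp9 had no read in the library labelled Th1 and 59.0 ± 0.872 TPM in the macrophage libraries (SD, n = 3). Of the other CC ligands, Ccl24 and Ccl27a were called lower, with no read in the library labelled Th1 and 2.08 ± 0.415 and 2.90 ± 0.382 TPM in the macrophage libraries.

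As sources, the OPC cultures and the sorted cells were compared only by makeup, because their values share no scale and no test joins them. The 4 genes with a level above 0 in every source (Ccl4, Ccl3, Ccl6 and Ccl9) were set per kilobase of annotated exon. Levels came from the authors' deposited table for OPCs and from estimated reads for sorted cells. Ccl25, also listed for both, had no read in the library labelled Th1 and was left out. In wild-type OPCs it had 42.4 per kb against 14.5 for Ccl6 in the authors' deposited table, so the shares hold among these 4 only. Ccl4 took 53.2% of their sum in Apc-deleted OPCs and 2.34% in wild-type OPCs in the authors' deposited table. It took 43.2% in the library labelled Th1 and 12.7% to 13.0% in the macrophage libraries.
Ccl6 took 18.7% in Apc-deleted OPCs and 65.3% in wild-type OPCs in the authors' deposited table, 29.3% in the library labelled Th1 and 58.9% to 59.3% in the macrophage libraries. Ccl3 took 18.9% in Apc-deleted OPCs and 11.3% in wild-type OPCs in the authors' deposited table, 0.183% in the library labelled Th1 and 16.4% to 17.0% in the macrophage libraries. Ccl9 took 9.16% in Apc-deleted OPCs and 21.0% in wild-type OPCs in the authors' deposited table, 27.3% in the library labelled Th1 and 11.3% to 11.4% in the macrophage libraries. Ccl4 was thus the leading gene of the 4 in Apc-deleted OPCs and in the library labelled Th1, and Ccl6 in wild-type OPCs and in each macrophage library.
On the same scale the ratio of Ccl3 to Ccl4 was 0.355 in Apc-deleted OPCs and 4.85 in wild-type OPCs in the authors' deposited table, 0.00424 in the library labelled Th1 and 1.26 to 1.33 in the macrophage libraries. These OPC values carry the wide standard errors of Ccl4 and Ccl3.

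**Figure D5:**
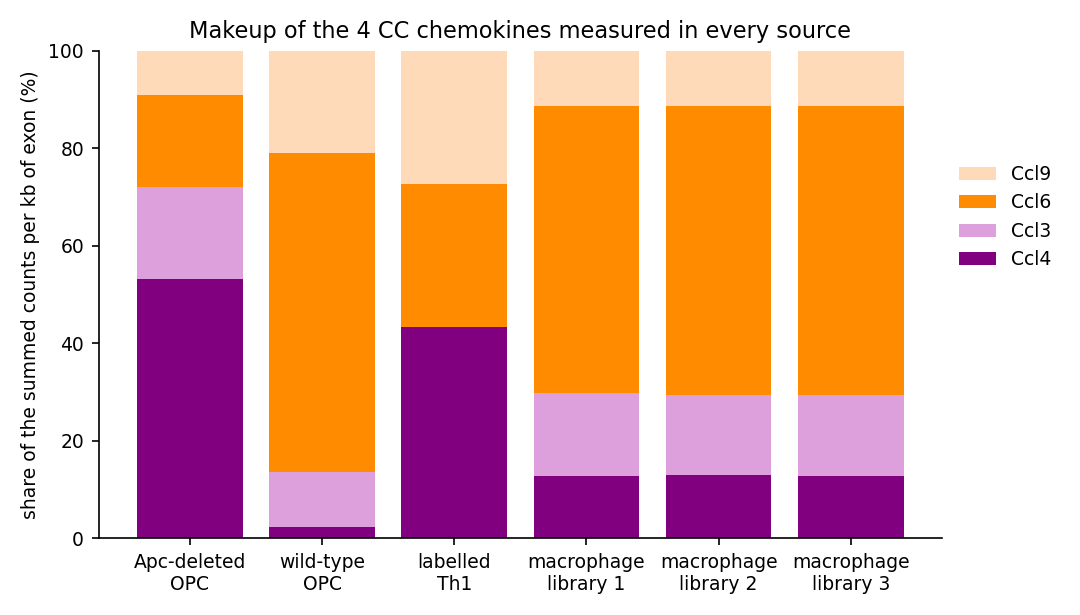
Share of Ccl4, Ccl3, Ccl6 and Ccl9 in their summed counts per kilobase of exon, for Apc-deleted and wild-type OPC cultures (derived from the authors' deposited table), the library labelled Th1 and each macrophage library. Ccl4 leads in Apc-deleted OPCs (53.2%) and in the library labelled Th1 (43.2%), and Ccl6 in wild-type OPCs (65.3%) and in the macrophage libraries (58.9% to 59.3%).

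The genes whose pattern lay nearest to that of Ccl4 were found over 3 values, the OPC log2 fold change and the log2(TPM + 1) in each sorted population. The candidates were 97 other genes that the authors' deposited table calls at an adjusted p under 0.05 and that are also listed for the sorted cells. The nearest was Lgals3, the lectin galectin-3, at a Euclidean distance of 5.11, with an OPC log2 fold change of 3.38 (SE 0.90) in the authors' deposited table, 1263 TPM in the library labelled Th1 and 1032 ± 16.1 TPM in the macrophage libraries (SD, n = 3). Cdkn1a, the cell cycle inhibitor p21, followed at 6.38 and the stress response gene Ier3 at 6.68, with OPC log2 fold changes of 0.91 (SE 0.19) and 0.82 (SE 0.19) in the authors' deposited table. None of these lay close to Ccl4, whose fold change is the highest of all genes in the authors' deposited table.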

How the data were processed

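RNA was sequenced in 150-base paired reads per the labels' protocols, and GRCm38 is the build per the submitters' processing notes. The aligner, counter and strand setting are not given in the sources here. For OPCs the authors deposited 1 comparison table. Its columns, per the file headers, are a mean of normalized counts (a signal value), a log2 fold change with its SE, a test statistic (a score) and p-values with adjusted p-values. Values per library are not in it, so OPC depth is unknown, and the authors' test stands in place of the edgeR fit that values per library would have allowed. The deposited sign runs the other way and was turned by Notum, Sp5, Lef1 and Axin2. For sorted cells the authors deposited TPM and estimated counts, per the file headers. Another 8 columns of values per sample were not used. No label holds the codes that head the macrophage columns, which were therefore given to the group without a replicate number.

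Estimated counts were rounded, with blanks read as 0. edgeR 4.0.16 (quasi-likelihood, TMM, filterByExpr, Benjamini-Hochberg over all genes) was tested on simulated data first. Few genes changed in that simulation, evenly up and down, whereas the median gene here was at -5.61. It therefore cannot show how the scaling or the test performs on these libraries. DESeq2 1.42.0, other scalings, no filter, a 2-fold threshold, another TPM minimum, another length scale and each macrophage library left out were the alternatives. Depth and counting floors are given with the results. The macrophage libraries differed by more than sampling noise (chi-square per degree of freedom 1.29 to 2.53). Positions come from GENCODE M21, which matched 99.8% of OPC identifiers, and promoters from RefSeq. Scripts ran in Python 3.11.15 and R 4.3.3, with Biopython 1.88, matplotlib 3.10.9, pandas 2.3.3, scipy 1.17.1 and numpy 2.4.6. All 10 genes are named. From fixed lists of further ligands, receptors, NF-kB genes and proteases, genes are named where measured, past a threshold or among the 3 highest, with the 3 genes nearest to Ccl4. The genes and lists were chosen with earlier results of these data known; Tlr4, Tubb3, Elavl1 and Il1b were named after their values were seen.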

Additional observations from a re-analysis of the deposited data

How the results depend on the processing

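The OPC count of 1 called gene of 5 was also 1 at an adjusted p under 0.1, and 1 of 4 with p-values adjusted over genes with a mean of 10 or more, a filter that removes Ccl3 (mean 9.98). Against the macrophage libraries 7 genes were called in the library labelled Th1; DESeq2 size factors and the DESeq2 test gave 8 each (adding Ccl9), library totals 6 (3 higher and 3 lower, adding Ccl25), no filter 6, a 2-fold threshold 8, and leaving out each macrophage library 7 to 7. Ccl6 turned to 1.13 with DESeq2 size factors and 1.13 with the DESeq2 test. Ccl4 fell under 4-fold with library totals (0.89) and with no filter (1.94), and Ccl2 with library totals (1.23). Of all calls 20.1% were higher, against 36.9% with DESeq2 size factors, 41.9% with the DESeq2 test (1875 higher, 2596 lower) and 11.9% with library totals. The count of 8 genes at 1 TPM or more became 7 at 10 TPM and stayed at 8 to 8 without each library in turn. Ccl6, the most abundant, was at 558 TPM, 556 to 562 without each library, and 995 on the same scale when reads were divided by annotated exon length; the cause was not tested. No paired analysis was possible because the OPC values come as 1 comparison and the sorted groups share fewer than 2 replicate numbers. The main limits are the low OPC counts of Ccl4 and Ccl3, the absence of values per OPC library, and a library labelled Th1 that is single, shallow and without most markers of its label.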
